A study of Mus musculus with 2 samples.

Results

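The aminoacyl-tRNA synthetases were described as a gene group of 36 genes, taken as every array probe whose gene name is that of a cytosolic or mitochondrial enzyme on a fixed list, among 16993 genes measured in all. Of the 36 genes, 20 encode cytosolic enzymes and 16 encode enzymes of the mitochondrion, and all 36 were measured on both arrays. RNA came from C2C12, a line of mouse myoblasts whose cells fuse to myotubes once serum is lowered, as was done here with horse serum before the exosomes were given. In the KPC-exo group the myotubes were given 4 µg of exosomes, small vesicles that cells release, from a mouse pancreatic cancer line for 24 h. That donor line was derived from a tumour of KPC mice, which carry the alleles KrasLSL-G12D/+ and Trp53LSL-R172H/+ together with Pdx1-Cre, a recombinase under a pancreatic promoter. In the MPDC-exo group the myotubes were given exosomes of MPDC, a mouse pancreatic ductal epithelial line, for 24 h. No source used here gives the dose of MPDC-exo, and C2C12 is a single line, so the groups model myotubes in culture. Each group had 1 array, so a difference is one between 2 arrays, and no test or p-value is given.

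An aminoacyl-tRNA synthetase joins an amino acid to the tRNA that carries its anticodon, so that the ribosome can add it to a protein. Most amino acids have 1 enzyme in the cytosol and another, encoded by a different nuclear gene, in the mitochondrion, which translates the few mRNAs of its own genome. The cytosolic genes include well-known targets of ATF4, a transcription factor made when amino acids run short and uncharged tRNA activates the kinase GCN2. Muscle is rich in mitochondria and depends on both translation systems.

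The members past 1.5-fold, Dars and Mars2, rest on 3 probes, which are shown because the probes of Dars gave opposite signs and Mars2 had a single one. The brightest of 4 measured Farsa probes and the one with the highest difference are shown beside them, because those also parted. Each is an array oligonucleotide of 60 bases as deposited, with its position on mm9.
Dars, transcript NM_177445, chr1:130310284-130311944, minus strand: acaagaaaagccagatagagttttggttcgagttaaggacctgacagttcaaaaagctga
Dars, transcript ENSMUST00000186398, chr1:130271530-130271589, minus strand: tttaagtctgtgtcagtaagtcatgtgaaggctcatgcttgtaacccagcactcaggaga
Mars2, transcript NM_175439, chr1:55295642-55295701, plus strand: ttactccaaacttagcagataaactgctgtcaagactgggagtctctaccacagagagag
Farsa, transcript NM_025648, chr8:87393027-87393085, plus strand: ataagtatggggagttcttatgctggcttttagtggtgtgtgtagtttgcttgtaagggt
Farsa, transcript ENSMUST00000144404, chr8:87390408-87390467, plus strand: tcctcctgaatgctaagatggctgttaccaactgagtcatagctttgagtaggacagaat
The first Dars probe spans 1661 bases of genome with 60 bases of sequence, so it crosses an intron. No annotation of mm9 was used here, so exon and UTR positions are not given for the other probes.

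As a group, the synthetase genes lay where the genes of the array lay. The median log2 difference, KPC-exo minus MPDC-exo, was 0.06 over the 36 genes, and the median of all 16993 measured genes was also 0.06. Among the synthetases 18 genes lay above that median and 18 below it, and 18 lay within the middle 50% of all genes, from -0.12 to 0.23. Values are log2 signal after each array was centred on its 75th percentile, so each difference is relative to the bulk of signal on its array. At least 1.5-fold higher with KPC-exo was 1 member, Mars2, and at least 1.5-fold lower was 1 member, Dars. Among all measured genes 3.73% were at least 1.5-fold higher and 3.70% at least 1.5-fold lower, and 1 of 36 is 2.78% in either direction, so these counts were near the background. At a lower mark, a log2 difference of 0.32, 8 members (22.2%) were higher against 15.5% of all genes, and 1 member (2.78%) was lower against 10.1% of all genes. At 2-fold, 0 members were higher against 0.730% of all genes, and 0 were lower against 1.19%.

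**Figure D1:**
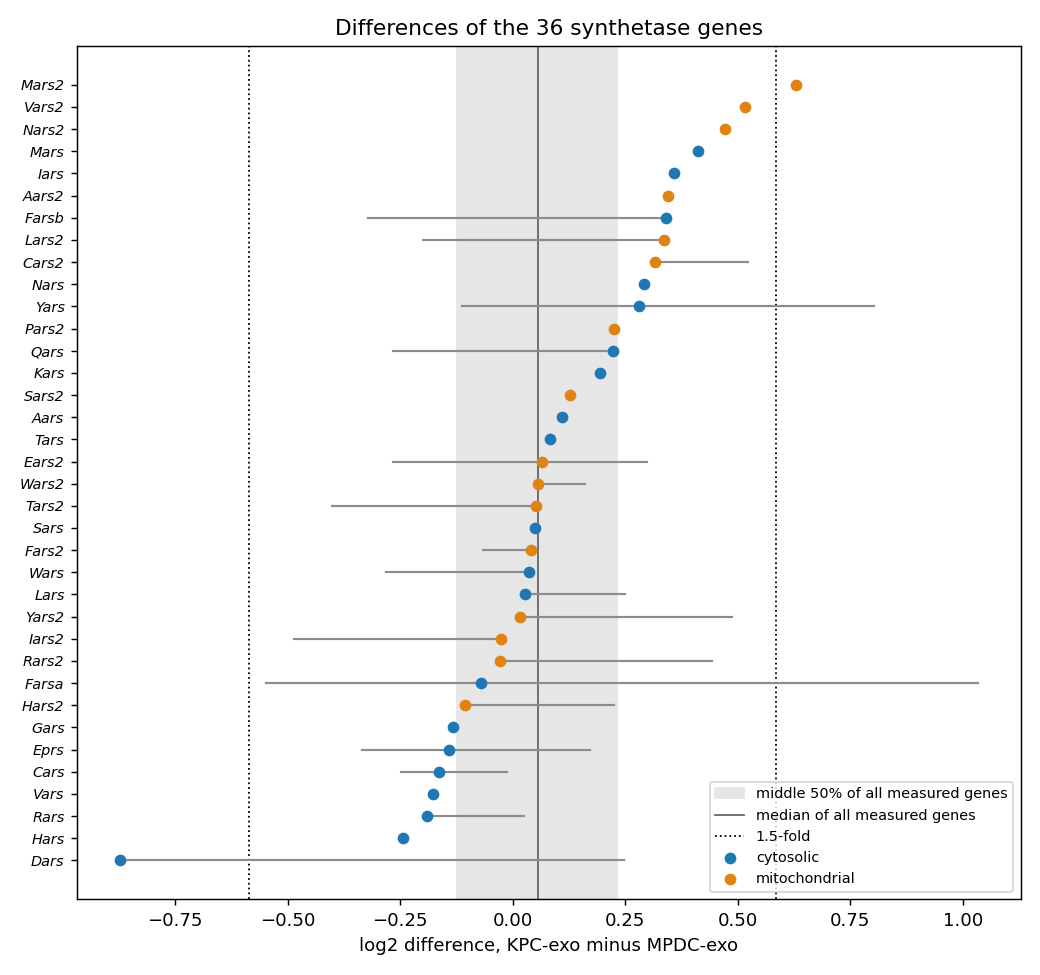
Log2 difference of the 36 synthetase genes, KPC-exo minus MPDC-exo (x axis), each at its brightest measured probe, coloured by compartment and ordered by value; grey lines run from the lowest to the highest measured probe of a gene. The points run from -0.87 for Dars to 0.63 for Mars2, with 1 gene past the dotted 1.5-fold line on each side, and the 18 genes in the grey band lie within the middle 50% of all measured genes.

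Spreads of 2 kinds can be set beside these differences, and the first is technical. Probes spotted 10 times on each array, 292 of them measured, had a median SD of 0.04 for the log2 difference between arrays. Different probes of the same gene disagreed far more, with a pooled SD of 0.36 over 5736 genes and of 0.33 over the 20 synthetase genes that had at least 2 measured probes. Such probes can be designed on different transcripts, so this SD may hold differences between transcripts besides technical spread. It also pools dimmer probes, whereas each member value comes from the brightest probe, so it is a rough yardstick for those values. In 6 of those 20 genes all measured probes had the same sign, and in 14 they had both signs. The other 16 genes rested on 1 measured probe. Neither spread covers variation between cultures.

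The cytosolic enzymes lay close to the array as a whole. Their median log2 difference was 0.04 over 20 genes, with 9 above the median of all genes and 11 below it, 0 at least 1.5-fold higher and 1 at least 1.5-fold lower. The spread of these differences over the genes had an SD of 0.29. Log2 signal at the probes used spanned -0.51 to 6.52 with KPC-exo and 0.36 to 6.65 with MPDC-exo. Probes differ in how well they hybridise, so signals of different genes are not ranked.

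**Figure D2:**
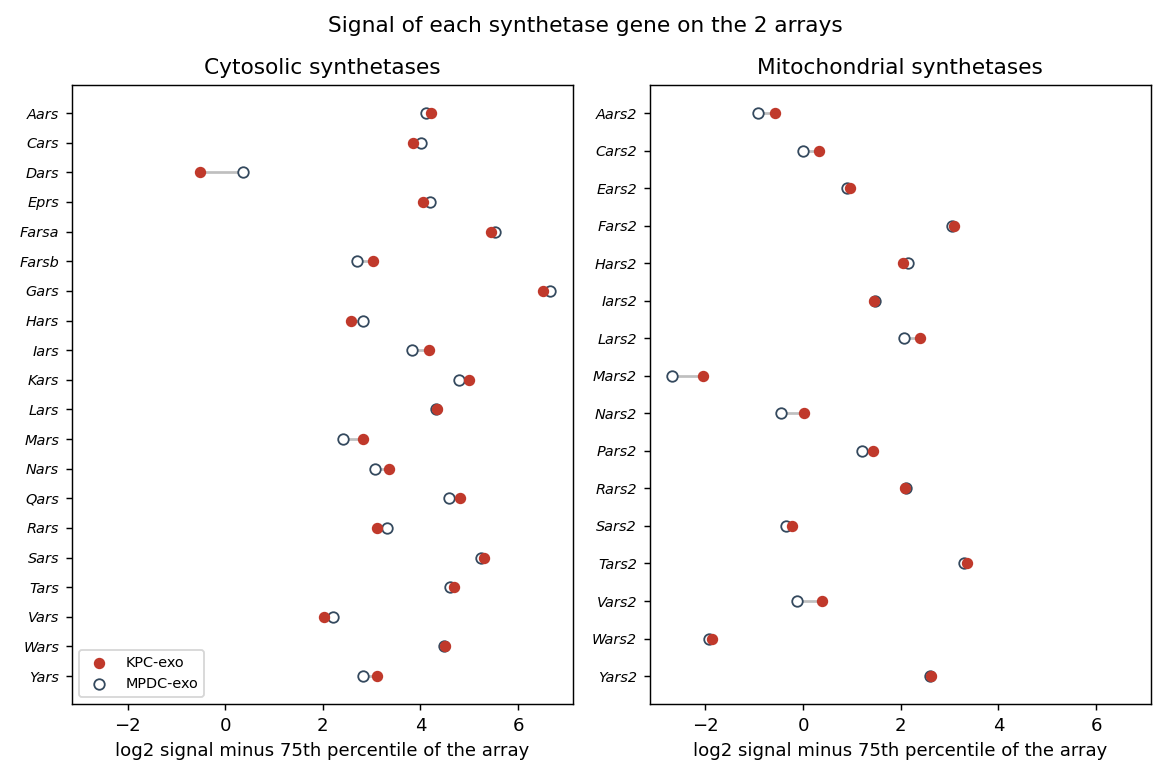
Log2 signal minus the array's 75th percentile (x axis) for each synthetase gene on the KPC-exo array (filled red) and the MPDC-exo array (open), in panels for cytosolic and mitochondrial enzymes. The 2 points of a gene nearly coincide in most rows, and the widest gaps are those of Dars on the left panel and Mars2 on the right.

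Dars, the cytosolic aspartyl-tRNA synthetase, had the lowest difference of the group. At its first probe the log2 signal was -0.51 with KPC-exo and 0.36 with MPDC-exo, from processed signals of 449 and 489 units, which gives a difference of -0.87 or 1.83-fold lower. At its second probe the log2 signal was -1.09 with KPC-exo and -1.34 with MPDC-exo, a difference of 0.25. The probes of Dars therefore pointed in opposite directions, and their mean was -0.31, within 1.5-fold. The first probe is the one nearer the 5′ end of the gene, and the second is nearer the 3′ end. Of all measured genes, 1.60% had a lower difference than the first probe gave.

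The next lowest cytosolic genes differed by much less. Hars, the histidyl enzyme, had log2 signals of 2.58 with KPC-exo and 2.82 with MPDC-exo, a difference of -0.24. The local background around that Hars probe was flagged on both arrays, and the second Hars probe did not read well above background on either. Rars, the arginyl enzyme, had 3.12 with KPC-exo and 3.31 with MPDC-exo, a difference of -0.19 at the probe used, against -0.02 and 0.03 at its other probes. Vars, the valyl enzyme, had 2.03 with KPC-exo and 2.20 with MPDC-exo, a difference of -0.18 at its single probe. These 3 differences were all smaller than the pooled SD between probes of a gene.

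Of the other cytosolic genes below 0, Cars, Eprs and Gars are given here, and Farsa is described with the phenylalanyl enzyme. Cars, the cysteinyl enzyme, gave -0.16 at the probe used and stayed below 0 at all 3 measured probes, from -0.25 to -0.01. Eprs, whose protein joins the glutamyl and prolyl enzymes in a single chain, gave -0.14, with its 5 measured probes from -0.34 to 0.17. Gars, which encodes both the cytosolic and the mitochondrial glycyl enzyme, had a log2 signal of 6.52 with KPC-exo and 6.65 with MPDC-exo, a difference of -0.13.

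On the higher side of the cytosolic enzymes, Mars came first. Mars, the methionyl enzyme, had log2 signals of 2.82 with KPC-exo and 2.41 with MPDC-exo, a difference of 0.41 or 1.33-fold at its single probe, chr10:126733940-126733999. Iars, the isoleucyl enzyme, had 4.18 with KPC-exo and 3.82 with MPDC-exo, a difference of 0.36 or 1.28-fold at its single probe. Nars, the asparaginyl enzyme, had 3.36 with KPC-exo and 3.07 with MPDC-exo, a difference of 0.29. Mars lay above the pooled SD between probes of a gene both over all genes and over the synthetases, Iars lay between these SDs of 0.36 and 0.33, and Nars lay below both. The remaining cytosolic genes Aars, Kars, Lars, Qars, Sars, Tars and Wars had differences from 0.03 to 0.22. Kars, which like Gars serves both compartments, had 0.19, and Wars, the tryptophanyl enzyme known for its induction by interferon gamma, had 0.04.

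Phenylalanyl- and tyrosyl-tRNA synthetase genes showed how far probes of 1 gene can part. The cytosolic phenylalanyl enzyme is built of alpha subunits from Farsa and beta subunits from Farsb. At the brightest Farsa probe the difference was -0.07, with log2 signals of 5.45 with KPC-exo and 5.52 with MPDC-exo, while its 4 measured probes ran from -0.55 to 1.03. The local background around that brightest probe was flagged on the KPC-exo array. The highest Farsa value belonged to a probe designed on the transcript ENSMUST00000144404. Farsb had a difference of 0.34 at the brightest of its probes and -0.32 at the next, and its remaining probe, designed on the predicted transcript XM_006497302, was well above background with MPDC-exo alone. Yars, the tyrosyl enzyme, had 0.28 at its brightest probe, with 3 measured probes from -0.11 to 0.80, the highest again on an Ensembl transcript, ENSMUST00000148619. At their brightest probes the subunit genes of the phenylalanyl enzyme lay closer together than the probes of Farsa did among themselves.

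The 8 enzymes of the multisynthetase complex, a cytosolic assembly of several synthetases on scaffold proteins, had differences on both sides. Their median was 0.11, against 0.04 for the 12 cytosolic genes outside it, with 4 of the 8 above the median of all genes and 4 below it. The means stood in the opposite order, 0.0009 for the complex enzymes and 0.03 for the genes outside it. Dars and Mars, the extremes of the cytosolic genes, both encode enzymes of the complex. Of the scaffold genes, Aimp1 with 0.03 lay below the median of all genes, while Aimp2 with 0.19 and Eef1e1 with 0.46 lay above it. Among these 3, 0 passed 1.5-fold, against 3.73% of all genes higher and 3.70% lower. Eef1e1, which encodes the scaffold AIMP3, had log2 signals of 2.32 with KPC-exo and 1.86 with MPDC-exo.

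The mitochondrial enzymes had a median log2 difference of 0.10 over 16 genes, with 9 above the median of all genes and 7 below it. The cytosolic median minus the mitochondrial median was -0.05. At least 1.5-fold higher was 1 of 16 mitochondrial genes and 0 were as much lower. Log2 signal at their probes ran from -2.05 to 3.35 with KPC-exo and from -2.68 to 3.30 with MPDC-exo.

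Mars2, the mitochondrial methionyl enzyme, had the highest difference of the group. Its single probe read 155 units with KPC-exo and 59.6 units with MPDC-exo, log2 signals of -2.05 and -2.68 after centring, a difference of 0.63 or 1.55-fold. For comparison, the lowest signals well above background were 47.3 units on the KPC-exo array and 31.2 units on the MPDC-exo array. In the dimmest 25% of measured genes, where Mars2 lies, 9.91% of genes were at least 1.5-fold higher. With normexp background correction, another way of removing background, the difference of Mars2 was 0.19.

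Vars2, Nars2 and Aars2 came next, each with a single probe. Vars2, the mitochondrial valyl enzyme, had 0.40 with KPC-exo and -0.12 with MPDC-exo, a difference of 0.52 or 1.43-fold. Nars2, the mitochondrial asparaginyl enzyme, had 0.02 with KPC-exo and -0.46 with MPDC-exo, a difference of 0.47 or 1.39-fold. Both lay above the pooled SD between probes of a gene and within 1.5-fold. Aars2, the mitochondrial alanyl enzyme, had 0.34, and Lars2, the leucyl enzyme, had 0.34 at the probe used and -0.20 at the second. Cars2, the cysteinyl enzyme, was positive at both of its probes, with 0.32 and 0.52.

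The other mitochondrial genes lay nearer to 0. Pars2, the prolyl enzyme, had 0.23 and Sars2, the seryl enzyme, had 0.13. Ears2, Wars2, Tars2, Fars2 and Yars2 had differences from 0.02 to 0.07, and of these Wars2 and Yars2 were positive at all measured probes. The other measured probes of Tars2 gave -0.07, -0.27 and -0.40, so its mean over probes was -0.17. For Fars2 the other probe gave -0.06 and the mean over probes was -0.01. The 3 genes below 0 were Iars2 with -0.03, Rars2 with -0.03 and Hars2 with -0.11. The other measured probes of Hars2 gave 0.22 and 0.22, and those of Rars2 gave 0.18 and 0.44, so the mean over probes was above 0 for both genes. Iars2, the isoleucyl enzyme, was negative at all 3 of its measured probes, from -0.49 to -0.03.

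Because cytosolic and mitochondrial enzymes of the same amino acid are encoded by separate genes, their differences were set side by side in 16 pairs. The cytosolic value was below the mitochondrial value in 12 pairs and above it in 4, with a median of -0.17. The widest pair was valine, with -0.18 for Vars and 0.52 for Vars2, then cysteine with -0.16 for Cars and 0.32 for Cars2. In the other direction, isoleucine had 0.36 for Iars and -0.03 for Iars2, and tyrosine 0.28 for Yars and 0.02 for Yars2. The gap was wider than the pooled SD between probes of a gene in 4 of the 16 pairs. That SD describes a single value, whereas a gap combines the probe spread of the cytosolic and the mitochondrial gene and can vary more. The count therefore does not show how many pairs stand out from the disagreement between probes. For methionine both genes lay high, with 0.41 for Mars and 0.63 for Mars2, and for asparagine likewise, with 0.29 for Nars and 0.47 for Nars2. For histidine the probes used gave -0.24 for Hars and -0.11 for Hars2, although the other Hars2 probes were positive. Hars and Hars2 are neighbours with no protein-coding gene between them in RefSeq, and their probes read opposite strands.

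**Figure D3:**
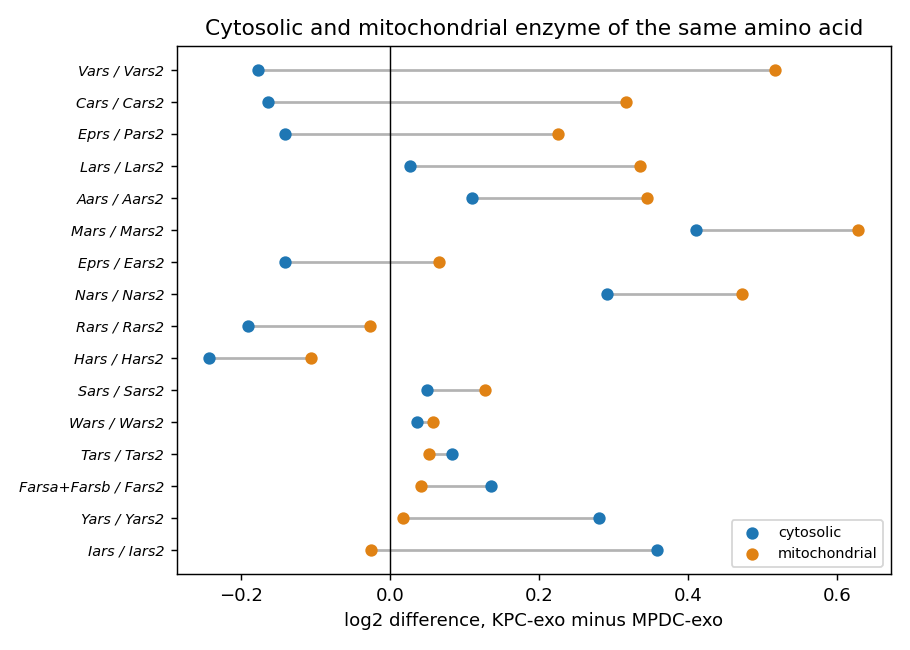
Log2 difference, KPC-exo minus MPDC-exo (x axis), of the cytosolic (blue) and the mitochondrial (orange) enzyme gene of the same amino acid, 1 pair per row; Farsa and Farsb are averaged, and Eprs stands in 2 rows. The blue point lies left of the orange one in 12 of the 16 rows, and the Vars and Vars2 row has the widest gap.

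Signal at the probes used differed between the compartments, and the differences were set beside it. Of the 20 cytosolic genes 12 lay in the brightest 25% of measured genes and 0 in the dimmest 25%, while of the 16 mitochondrial genes 0 lay in the brightest and 2 in the dimmest. In the brightest 25% the median difference of all genes was 0.01, and in the 3 dimmer groups, from the dimmest up, it was 0.07, 0.07 and 0.08. In the second dimmest group, 7 mitochondrial genes had a median of 0.32, where the middle 50% of all genes ran from -0.12 to 0.25. In the next brighter group the order of the compartments turned round, with a median of 0.28 for 7 cytosolic genes and 0.02 for 7 mitochondrial genes. The middle 50% of all genes in that group ran from -0.07 to 0.23, so the cytosolic median lay above it and the mitochondrial median within it. The part of signal in the gap between compartments was not tested further.

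**Figure D4:**
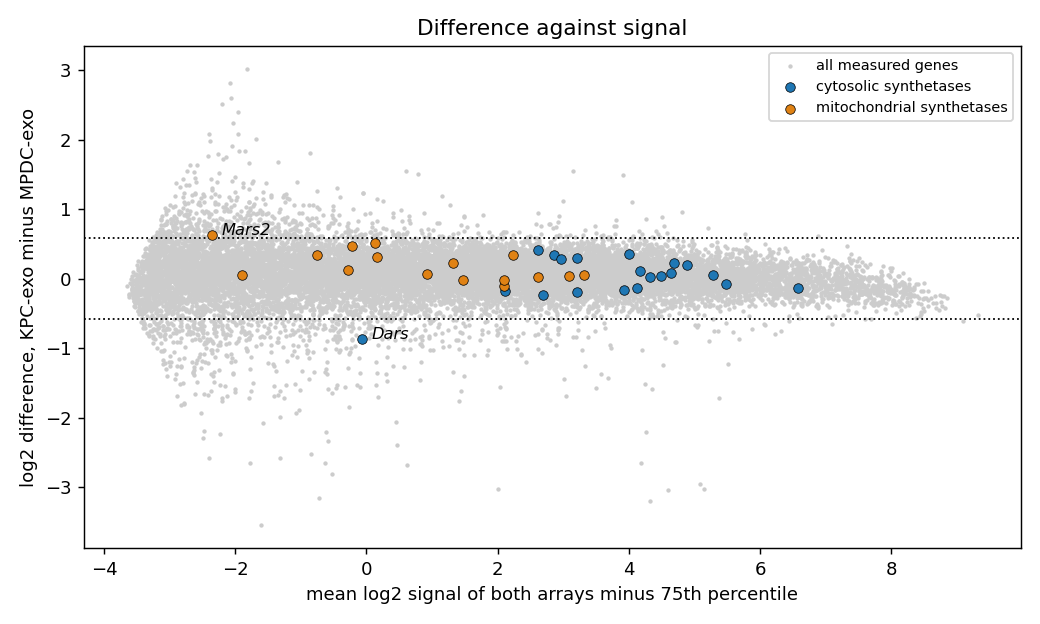
Log2 difference, KPC-exo minus MPDC-exo (y axis), against mean log2 signal of both arrays (x axis) for all 16993 measured genes (grey) and the cytosolic (blue) and mitochondrial (orange) synthetases; dotted lines mark 1.5-fold. The grey cloud widens at low signal, where Mars2 lies just above the upper line, and Dars lies below the lower line at intermediate signal.

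Synthetases fall into 2 structural classes that differ in the fold of the catalytic domain, and the medians of the classes lay close together. Class I enzymes had a median of 0.06 over 18 genes and class II enzymes 0.08 over 17 genes, leaving out Eprs, which holds a domain of each. Within the cytosol the medians were 0.04 over 9 class I genes and 0.07 over 10 class II genes. Within the mitochondrion they were 0.07 over 9 and 0.13 over 7.

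The position of the probe used along its gene was compared with that of other genes. In 18 of the 20 synthetase genes with at least 2 measured probes, the probe used was the one nearest the 3′ end, against 76.7% of 5658 genes on the array. The exceptions were Ears2 and Dars, and Dars had the widest gap between its 3′ and 5′ probes, 1.12. The difference at the probe nearest the 3′ end was above that at the probe nearest the 5′ end in 13 of the 20 genes, with a median gap of 0.25, against 54.4% and 0.05 over all such genes. The part of probe position in the results was not tested.

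Promoters of the members were read for the C/EBP-ATF response element, the site through which ATF4 acts on amino acid response genes. The motif searched was TGATGNAA on both strands, in windows from 250 bases before to 50 bases after each start site of RefSeq genes (GRCm38.p6). A window was found for 27 members. It held the motif in 5 of them (18.5%), Aars, Gars, Iars, Tars and Yars, all cytosolic, against 4.51% of all 27025 genes with a window. The cytosolic Cars, Hars, Lars, Nars, Rars, Vars and Wars and the mitochondrial Hars2 and Pars2 had no window and were not read. The stretches with the match are shown because this shared feature was not used to choose the genes, 5′ to 3′ on the strand of the gene, with the match in capitals. Each stretch of 70 bases ends 20 bases after the start site, except for the first match of Aars, whose stretch begins 140 bases before it. The matches of Iars and Yars and the second match of Aars lie after the start site.
Aars, first match, chr8:111033702-111033771, plus strand: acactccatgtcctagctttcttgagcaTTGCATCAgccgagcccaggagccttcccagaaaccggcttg
Aars, second match, chr8:111033792-111033861, plus strand: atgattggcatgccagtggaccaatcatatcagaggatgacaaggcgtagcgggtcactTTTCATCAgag
Gars, chr6:55037951-55038020, plus strand: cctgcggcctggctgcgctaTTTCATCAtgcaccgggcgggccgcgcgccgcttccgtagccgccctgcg
Iars, chr13:49682080-49682149, plus strand: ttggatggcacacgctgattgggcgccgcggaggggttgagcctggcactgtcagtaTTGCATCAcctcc
Tars, chr15:11399639-11399708, minus strand: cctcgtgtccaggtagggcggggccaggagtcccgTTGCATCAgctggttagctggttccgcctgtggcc
Yars, chr4:129189853-129189922, plus strand: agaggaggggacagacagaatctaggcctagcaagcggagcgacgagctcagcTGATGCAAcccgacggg
The 5 genes with a match had log2 differences of 0.11 for Aars, -0.13 for Gars, 0.36 for Iars, 0.08 for Tars and 0.28 for Yars. Their median was 0.11, and that of the 22 members whose window held no match was 0.10. Over all measured genes the medians with and without a match were both 0.06. A match is a description of these letters and shows no binding.

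Genes of the amino acid response itself had a median log2 difference of -0.06 over 10 measured genes of 11 listed. Past 1.5-fold were 0 of the 10 in either direction, against 3.73% of all genes higher and 3.70% lower. Atf4 had 7.57 with KPC-exo and 7.78 with MPDC-exo, a difference of -0.21. Trib3, a pseudokinase gene that ATF4 and CHOP induce, had -0.38, Asns, the asparagine synthetase gene, had -0.14, and Phgdh, the first enzyme of serine synthesis, had 0.22. Eif2ak4, which encodes GCN2, had -0.15, and Slc7a11 was well above background with KPC-exo alone.

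Genes that act beside the synthetases were read as well. Of 10 other charging and editing genes, all measured, 0 passed 1.5-fold, against 3.73% of all genes higher and 3.70% lower. With so few genes, a count of 0 is near those shares. Their median was 0.17, against 0.06 for all genes, with 7 above the median of all genes and 3 below it. Dtd2, a deacylase that removes wrongly attached amino acids from tRNA, had 0.35, and Prorsd1 had 0.32. Dtd1, which removes D-amino acids, had -0.25. Mitochondria lack a glutaminyl enzyme of their own and convert glutamyl-tRNA with an amidotransferase, whose subunit genes Qrsl1, Gatb and Gatc had 0.24, 0.29 and 0.16. Mtfmt, which formylates the initiator methionyl-tRNA that Mars2 charges, had -0.17. Of the factors that carry charged tRNA to the ribosome, Eef1a1 in the cytosol had -0.37 and Tufm in the mitochondrion 0.16, while Eef1a2 did not read well above background on either.

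Markers were read to check the cell type. All 8 myotube markers were measured, with log2 signals from -0.31 to 7.67 with KPC-exo and from 0.12 to 7.43 with MPDC-exo. The dimmest was Ckm. Their median difference was -0.15, with 6 below 0, among them Myog, Acta1 and Myh3. The 2 above 0 were Tnnt3 with 0.34 and Mylpf with 0.24. Of the 5 markers of undifferentiated myoblasts 4 were measured, with a median difference of -0.18, and Myf5 did not read well above background on either. Of 8 markers of ductal epithelium, the cell type of the MPDC donor, Krt19 alone was well above background, at -2.34 with KPC-exo and -2.47 with MPDC-exo. Of 5 fibroblast markers 4 were measured, with differences from -0.20 to 0.37. Their log2 signals ran from -1.02 to 6.45 with KPC-exo and from -0.82 to 6.08 with MPDC-exo. The brightest, Dcn, read within the range of the myotube markers. Of 4 macrophage markers 3 were measured, with differences from -0.87 to 0.63. Their log2 signals ran from -0.84 to 0.55 with KPC-exo and from -1.40 to 0.27 with MPDC-exo. In cultured cells less RNA per cell and fewer cells of a type cannot be told apart, and the part of these markers in the synthetase values was not tested. The share of probes well above background was 47.6% with KPC-exo and 45.9% with MPDC-exo, and the 75th percentile, on which each array was centred, stood at 639 units with KPC-exo and 380 units with MPDC-exo.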

How the data were processed

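RNA of 2 cultures was measured on 1-colour Agilent arrays, 1 per group, grouped by the treatment in the labels. According to the file headers, Agilent Feature Extraction 10.7.1.1 subtracted background and spatial trends, and, per the file headers, the deposited spot intensity is not normalized between arrays. The deposited value table holds log2 values whose making is not stated in the sources used here. They correlate with the log2 scanner signal at 1.00 on both arrays, with column medians of 4.89 and 4.89 over 56578 probes, and were used as an alternative.

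Log2 of the processed signal was averaged over the spots of a probe, leaving out outlier spots (166 on the KPC-exo and 102 on the MPDC-exo array), and each array's 75th percentile was subtracted. For each gene the brightest probe was taken among those well above background on both arrays. Members were matched by gene name, and other probes were named through RefSeq accessions (GRCm38.p6, 32927 probes). The calculation was tested on simulated data. No test was possible with 1 array per group, and the low number of arrays limits precision. Called means past 1.5-fold. The members, lists and rules were chosen with earlier results of these data known. All 36 members are accounted for, with every measured probe value for those past 1.5-fold and for the 4 highest and 4 lowest. The other lists are named by size of difference, with some further members named after their values were seen.

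Python 3.11.15, numpy 2.4.6, pandas 2.3.3 and matplotlib 3.10.9 were used, with limma 3.58.1 in R 4.3.3 for normexp (offset 50), quantile and cyclic loess alternatives. Other alternatives were centring on the median or on probes detected on both arrays, no or a stricter filter on dim probes (4 times the lowest detected signal), the mean over probes, other treatment of flagged spots, the mean of the members in place of the median, the value table, and thresholds of log2 0.32 and of 2-fold.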

Additional observations from a re-analysis of the deposited data

How the results depend on the processing

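The cytosolic median of 0.04 moved by more than the SD of replicate spots to 0.12 with normexp and 0.11 with cyclic loess, and to -0.011 with centring on the median and -0.013 with the percentile over detected probes. These centrings shift all genes alike, and the cytosolic median minus the median of all genes was -0.015 with either centring, as in the values given. The mitochondrial median of 0.10 moved to 0.043 and 0.041 under these centrings, to 0.16 with the mean over probes and to 0.19 as the mean of the members. The cytosolic median minus the mitochondrial median was -0.000905 with cyclic loess and -0.13 with the mean over probes. Members at least 1.5-fold higher numbered 0 with normexp, with either centring, with the stricter filter and at 2-fold, and 8 at a log2 difference of 0.32. Members at least 1.5-fold lower numbered 0 with the mean over probes, where Dars had -0.31, and at 2-fold. With no filter on dim probes the median of all genes was -0.15 in place of 0.06 over 37305 genes, so the synthetases then lay 0.21 above it. The stricter filter left out Mars2 and Wars2, and leaving out background-flagged spots left out Hars. It also moved Farsa to another probe, with 0.006 in place of -0.07. Of 393 values of single members under an alternative, 391 stayed within the pooled SD between probes of a gene. The exceptions were Dars with the mean over probes and Mars2 with normexp. That SD, 0.36, is larger than most of the differences, so a value could change sign and still count as within it. With the mean over probes Qars went from 0.22 to -0.02 and Hars2 from -0.11 to 0.11. The filters on dim probes left the value of each member they kept unchanged, so this count is no measure of stability. The cytosolic gene was lower in 9 of 16 pairs with normexp, against 12 of 16 in the values given. No paired analysis was possible because each group has 1 array and no result comes from a test.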
